A study of Homo sapiens with 30 samples.

Results

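The question here was whether interleukin 1 beta (IL-1β) had the same effect on gene expression when cells received it directly and when they received vesicles from cells that had received it. The comparison is the vesicle response minus the direct response, measured by RNA sequencing in 12 of the 30 libraries of the series. All libraries come from hCMEC/D3 cells, a single immortalised line of human brain microvascular endothelium grown as a stand-in for that barrier in culture. The members of the comparison were the 15703 genes, of 63138 in the table, that passed a filter on low counts.

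There were 4 groups of 3 libraries, all sampled at 12 h. Control cells were kept in serum-free medium without a stimulus, and IL1b cells received IL-1β at 10 ng/mL. EV-Control cells received extracellular vesicles enriched from the supernatant of unstimulated cells, and EV-IL1b cells received vesicles enriched from the supernatant of cells given IL-1β at 10 ng/mL. The direct response is IL1b against Control, and the vesicle response is EV-IL1b against EV-Control, so the arms share no library but have different controls. The vesicle dose is not given in the sources used here. Nothing in the labels says that libraries of a group came from separate cultures, so the p-values measure only the spread between these libraries, which may be technical.

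IL-1β binds the receptor IL1R1, which recruits the co-receptor IL1RAP and signals through the adaptor MYD88 and the IRAK kinases to NF-κB and the MAP kinases. In endothelium NF-κB raises adhesion molecules, chemokines and cytokines that draw leukocytes, and also its own inhibitors, among them NFKBIA and TNFAIP3. A separate set of genes answers to interferon through a complex with STAT2 and IRF9 that binds the interferon-stimulated response element (ISRE) in promoters. Extracellular vesicles are membrane particles shed by cells that carry protein and RNA and can be taken up by other cells.

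Library totals ran from 16690949 to 19922547 counts, with 14650 to 15137 genes at 10 counts or more. The endothelial markers PECAM1, CDH5, KDR, FLT1, TEK, TIE1, ENG, VWF, ERG and CLDN5 were present, whereas EMCN and NOS3 stayed under 1 CPM (counts scaled to a common library total) in each library. The 12 endothelial markers summed to 1180 to 1240 CPM in Control, 939 to 971 in IL1b, 840 to 864 in EV-Control and 908 to 963 in EV-IL1b. Of 12 leukocyte markers, 10 were under 1 CPM in every library, and the list summed to at most 4.21 CPM. The 12 epithelial markers summed to 294 to 348 CPM and those of astrocytes and neurons to 139 to 173. Of the epithelial markers 6 were under 1 CPM in every library, EPCAM and CDH1 among them. KRT18 held most of that sum, with group means of 254 to 285. Of the astrocyte and neuron markers 7 were under 1 CPM in every library. MBP (95.9 to 112) and MAP2 (35.0 to 61.8) held most of their sum. The marker sums moved between groups, and their part in the results was not tested. In bulk RNA, fewer cells of a type and less RNA per cell cannot be told apart. The first principal component (38.6% of the variance) set IL1b (48.6 to 52.4) apart from the other groups, all below 0. The third (10.8%) separated EV-Control (10.1 to 31.0) from EV-IL1b (-24.2 to -19.0). The EV-Control libraries spread most among themselves, from -25.0 to 20.3 on the fourth component (5.2%).

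The direct response was broad and the vesicle response narrower, and for many genes they differed. With p-values from the quasi-likelihood test of edgeR, adjusted by Benjamini-Hochberg over all genes at 0.05, 7811 genes (49.7% of those tested) changed in the direct response, 3976 higher and 3835 lower. In the vesicle response 2050 genes (13.1%) changed, 963 higher and 1087 lower. The vesicle response differed from the direct response in 6037 genes (38.4%), with 2868 higher and 3169 lower in the vesicle arm. Among the changed genes the median absolute log2 fold change was 0.42 in the direct and 0.31 in the vesicle response. A change of over 1 on the log2 scale was seen for 1127 genes in the direct and 194 in the vesicle response. With scaling by total counts the median log2 value of all genes was 0.108 in the difference (0.019 otherwise) and -0.093 in the direct response (-0.013 otherwise). It then put 3853 genes higher and 2312 lower in the difference (62.5% higher against 47.5%), and 3021 higher and 4897 lower in the direct response (38.2% higher against 50.9%).

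Genes were sorted by which of the 3 tests they passed. Alike means that both responses passed with the same sign, and opposite that both passed with opposite signs. Direct only and vesicle only mean that this response and the difference passed while the other response did not. There were 775 genes alike (4.94% of those tested; 2.53% rising and 2.4% falling) and 604 opposite (3.85%; 2.32% rising and 1.53% falling with direct IL-1β). There were 4377 direct only (27.9%; 14.3% rising and 13.6% falling) and 385 vesicle only (2.45%; 1.11% rising and 1.34% falling). A further 2341 (14.9%) passed in 1 response without a called difference and stayed unresolved (7.1% with a rising and 7.81% with a falling direct value). In 339 (2.16%) the difference alone passed, and 6882 (43.8%) passed no test. Since a missed threshold does not show that a gene stayed level, the 95% interval of the uncalled response was also read. It lay inside ±0.5 log2 for 3649 of the direct only genes and for 265 of the vesicle only genes.

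**Figure D1:**
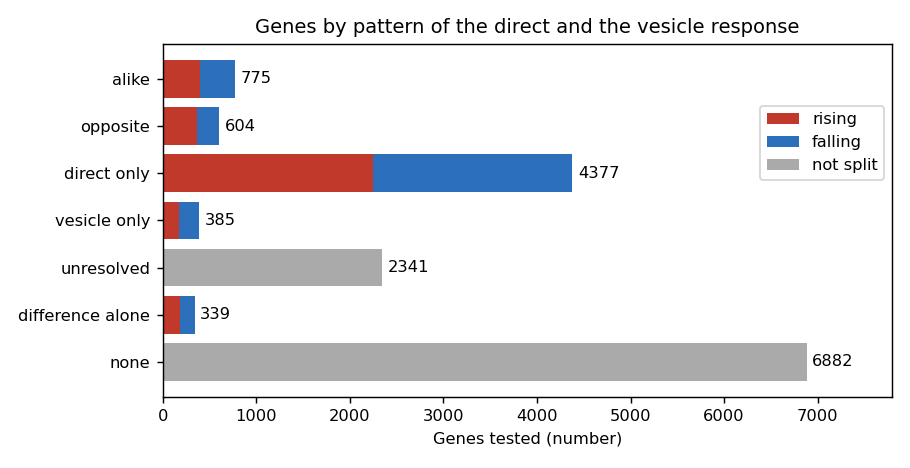
Bars give the number of genes in each pattern, of 15703 tested. Red and blue split a bar by direction (in the direct response for the first 3 bars, in the vesicle response for vesicle only, in the difference for difference alone), and grey bars are not split. Direct only (4377) is the longest bar after none (6882), and alike (775) exceeds opposite (604).

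Both responses passed for 1379 genes, which is 17.7% of the direct calls and 67.3% of the vesicle calls, and 56.2% of them were alike. Across all genes tested the fold changes of the arms had a Pearson correlation of -0.03, a description over genes that are not independent. Among the 775 alike genes the size differed between arms in 332, and in 311 of these the vesicle change was the smaller. The median absolute log2 fold change of alike genes was 0.49 in the direct and 0.28 in the vesicle response.

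**Figure D2:**
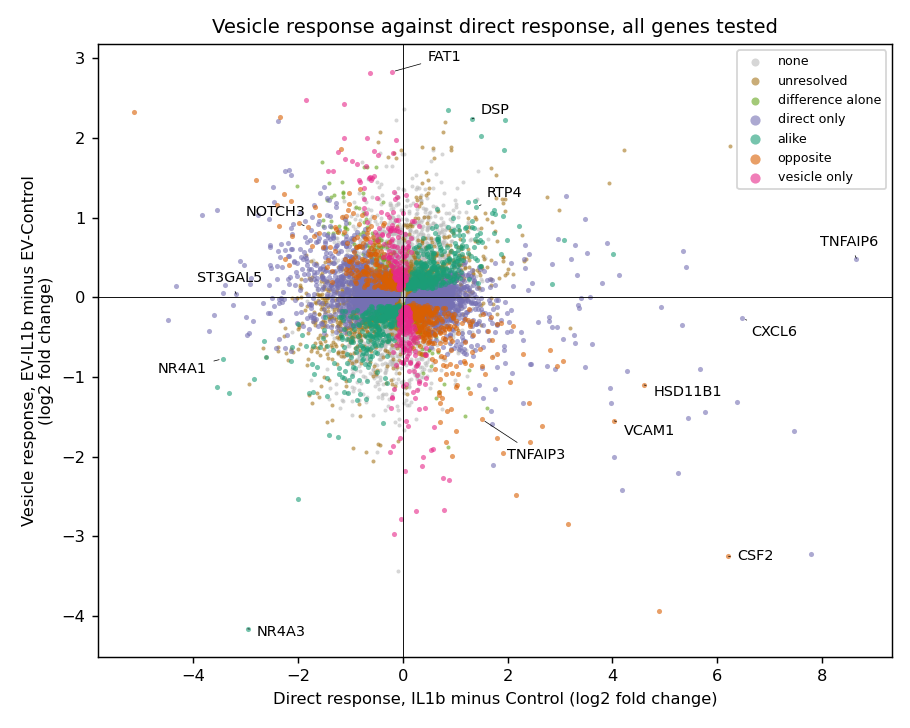
Each point is a gene, with the direct log2 fold change on the horizontal and the vesicle log2 fold change on the vertical axis, coloured by pattern. The direct changes reach far to both sides while most vesicle changes lie near 0, with FAT1 (2.83) and DSP (2.24) high and NR4A3 (-4.16) and CSF2 (-3.25) low.

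Interferon-stimulated genes rose in both arms. Of 35 genes on the list, 33 were tested, of which 29 rose and none fell in the direct response (background 25.3% rising), and 28 rose and 1 fell in the vesicle response (background 6.13% rising). The pattern was alike and rising for 26 of them, against 2.53% of all genes tested. Their median log2 fold change was 1.03 in the direct and 0.63 in the vesicle response, against -0.013 and 0.004 over all genes. The vesicle response was lower than the direct response for 25 genes (background 20.2%), IRF1 with its fall among them, or for 21 with scaling by total counts.

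MX2, an antiviral GTPase (chr21:41361943-41409390, GRCh38), stood at 80.7, 70.9 and 75.4 CPM in Control and at 354, 374 and 335 in IL1b. In the vesicle arm it stood at 89.7, 81.5 and 75.2 CPM in EV-Control and at 166, 154 and 141 in EV-IL1b. The groups did not overlap in either arm, and the EV-IL1b libraries lay well below the IL1b libraries. Such a lack of overlap was common: of 15703 genes tested it held for 8885 in the direct and 4481 in the vesicle arm. The log2 fold change was 2.23 (SE 0.0765) in the direct and 0.90 (SE 0.0767) in the vesicle response, a difference of -1.32 (SE 0.107, adjusted p = 8.95e-07). RTP4, a chaperone of membrane receptors induced by interferon, had no detected difference between arms. It was at 3.51, 3.33 and 5.58 CPM in Control, 11.3, 11 and 10.5 in IL1b, 3.19, 3.83 and 3.65 in EV-Control and 8.43, 7.40 and 7.61 in EV-IL1b. Its log2 fold changes were 1.40 and 1.13, and the difference was -0.27 (SE 0.237, adjusted p = 0.387). BATF2, an interferon-induced transcription factor, was alike as well, with 1.39 in the direct and 1.20 in the vesicle response.

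ISG15, a ubiquitin-like protein, rose by nearly the same log2 amount in both arms (0.68 and 0.67), as did IFIT2, which binds foreign RNA (0.98 and 0.84). Larger gaps were seen for OAS2, which senses double-stranded RNA (1.51 and 0.70), and for the exonuclease ISG20 (1.03 and 0.01), a direct only gene. IRF7, a transcription factor of the pathway, rose in both (1.08 and 0.52). The chemokine CXCL11, ligand of CXCR3 and induced by interferon, rose by 1.93 and 1.85. CXCL11 was low, with means of 0.948 CPM in Control, 3.61 in IL1b, 0.419 in EV-Control and 1.53 in EV-IL1b. The chemokine CXCL10 was direct only (3.49 and 0.99, vesicle adjusted p = 0.0806). Its means were 0.604 CPM in Control, 6.8 in IL1b, 0.552 in EV-Control and 1.1 in EV-IL1b. CCL5, which draws T cells, rose by 0.65 in the direct and 1.11 in the vesicle response. Only the vesicle response passed for RIGI, the sensor of viral RNA, and for IRF9, the DNA-binding partner of STAT2. RIGI had log2 fold changes of 0.06 direct and 1.29 vesicle, and IRF9 of 0.05 and 0.79. For RIGI EV-Control lay below Control by a log2 of 0.71, with means of 5.07 CPM in Control, 3.06 in EV-Control and 7.53 in EV-IL1b. The IRF9 means were 10.8, 9.12 and 15.8. Among the tested members IRF1 alone was opposite (0.82 and -0.96). Its opposite call was kept in 3 of the 12 fits that left out a library. The counting may include C5orf56 on the other strand of IRF1.

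Promoters are shown for RTP4 and IFIT3 as examples of alike, rising genes that hold the ISRE. IFIT3, which binds other IFIT proteins, rose by 1.36 in the direct and 0.88 in the vesicle response. Each line gives the 250 bases before the RefSeq start (GRCh38.p14, plus strand), chr3:187368135-187368384 for RTP4 and chr10:89327747-89327996 for IFIT3. Capitals mark the ISRE pattern (GAAA, any 2 bases, GAAA) on either strand, which occurs in 2 stretches of each.
RTP4: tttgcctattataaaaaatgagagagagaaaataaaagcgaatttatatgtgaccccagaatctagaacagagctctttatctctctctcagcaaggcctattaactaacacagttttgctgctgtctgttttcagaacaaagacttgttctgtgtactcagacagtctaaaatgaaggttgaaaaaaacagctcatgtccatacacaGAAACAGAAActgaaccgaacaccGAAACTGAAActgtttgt
IFIT3: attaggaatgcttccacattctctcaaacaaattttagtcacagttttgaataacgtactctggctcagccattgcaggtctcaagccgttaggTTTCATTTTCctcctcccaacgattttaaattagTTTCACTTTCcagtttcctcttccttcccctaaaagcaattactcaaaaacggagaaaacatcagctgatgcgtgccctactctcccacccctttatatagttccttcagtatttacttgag

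Of the genes tested, 11203 had a promoter in RefSeq under their symbol. The ISRE pattern, searched on both strands and added after values were seen, occurred in 2.52% of them. It occurred in 45 of 307 promoters (14.7%) of alike, rising genes and in 7 of 301 (2.33%) of opposite genes that rose in the direct response. On the interferon list 14 of 25 promoters held it (56.0%). The median GC content was 64.8% over all promoters, 63.6% in the alike, rising set, 67.2% in the opposite set and 55.2% on the list. A match is a description of these letters and not a measured binding site.

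Among genes of the NF-κB pathway, rises prevailed in the direct response and falls in the vesicle response. All 22 genes on the list of subunits and feedback genes were tested. In the direct response 13 rose and 1 fell (background 25.3% and 24.4%), and in the vesicle response none rose and 10 fell (background 6.92% falling). The median log2 fold change was 0.46 direct and -0.53 vesicle. The difference was lower in the vesicle arm for 16 genes (background 20.2%) and higher for 1, the mRNA-destabilising factor ZFP36. The pattern was opposite for 7 genes (background 3.85%), direct only for 7 (background 27.9%) and vesicle only for 2 (background 2.45%).

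TNFAIP3, the deubiquitinase A20 that ends NF-κB signalling, was at 67.9, 54.4 and 73.6 CPM in Control and 197, 179 and 180 in IL1b. It was at 439, 322 and 219 CPM in EV-Control and at 103, 110 and 127 in EV-IL1b. The groups did not overlap in either arm, and the highest level of the 4 groups was in EV-Control. The log2 fold change was 1.51 (SE 0.246) direct and -1.53 (SE 0.236) vesicle, a difference of -3.04 (adjusted p = 0.000122). It was called opposite in each of the 12 fits that left out a library. TNFAIP3 shares its locus with AL357060.1 on the other strand, and whether counting used the strand is not stated.

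NFKBIA, the inhibitor IκBα, did not pass the test in the direct response (log2 -0.16, adjusted p = 0.254) and fell by 1.15 in the vesicle response. Control libraries were at 304, 286 and 337 CPM and IL1b libraries at 285, 273 and 269, while EV-Control libraries were at 706, 649 and 533 and EV-IL1b at 273, 271 and 308. The EV-IL1b values thus lay within the range of the Control and IL1b libraries, and the EV-Control libraries were the high ones. ZC3H12A, an RNase that degrades cytokine mRNA, was opposite (0.85 and -1.43), as were NFKB2 (0.79 and -0.74), the co-activator BCL3 (0.90 and -0.52) and the inhibitor NFKBIB (0.46 and -0.28). BIRC3, an inhibitor of cell death, had 2.05 and -1.07, but its vesicle call was kept in only 2 of 12 fits with a library left out. NFKB1 (0.82), RELB (1.04) and TNIP1 (1.81), a partner of A20, rose in the direct response only, with vesicle values of -0.16, -0.55 and -0.11.

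The vesicle response is measured from EV-Control, which itself differed from Control for many of these genes. EV-Control was higher than Control by a log2 of 2.32 for TNFAIP3, 1.03 for NFKBIA, 1.78 for VCAM1, 3.97 for CSF2 and 2.50 for CCL20. Over all genes 3789 (24.1%) differed between these controls. This comparison shares libraries with both responses, so its values are given beside them only. Within EV-Control, replicate 1 was the highest for TNFAIP3, NFKBIA, BIRC3, VCAM1 and CSF2 and replicate 3 the lowest. Without EV-Control replicate 1 the vesicle log2 fold change was -1.26 for TNFAIP3, -0.64 for BIRC3, -0.97 for VCAM1, -0.57 for ICAM1 and -2.45 for CSF2, and all were still called lower.

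**Figure D3:**
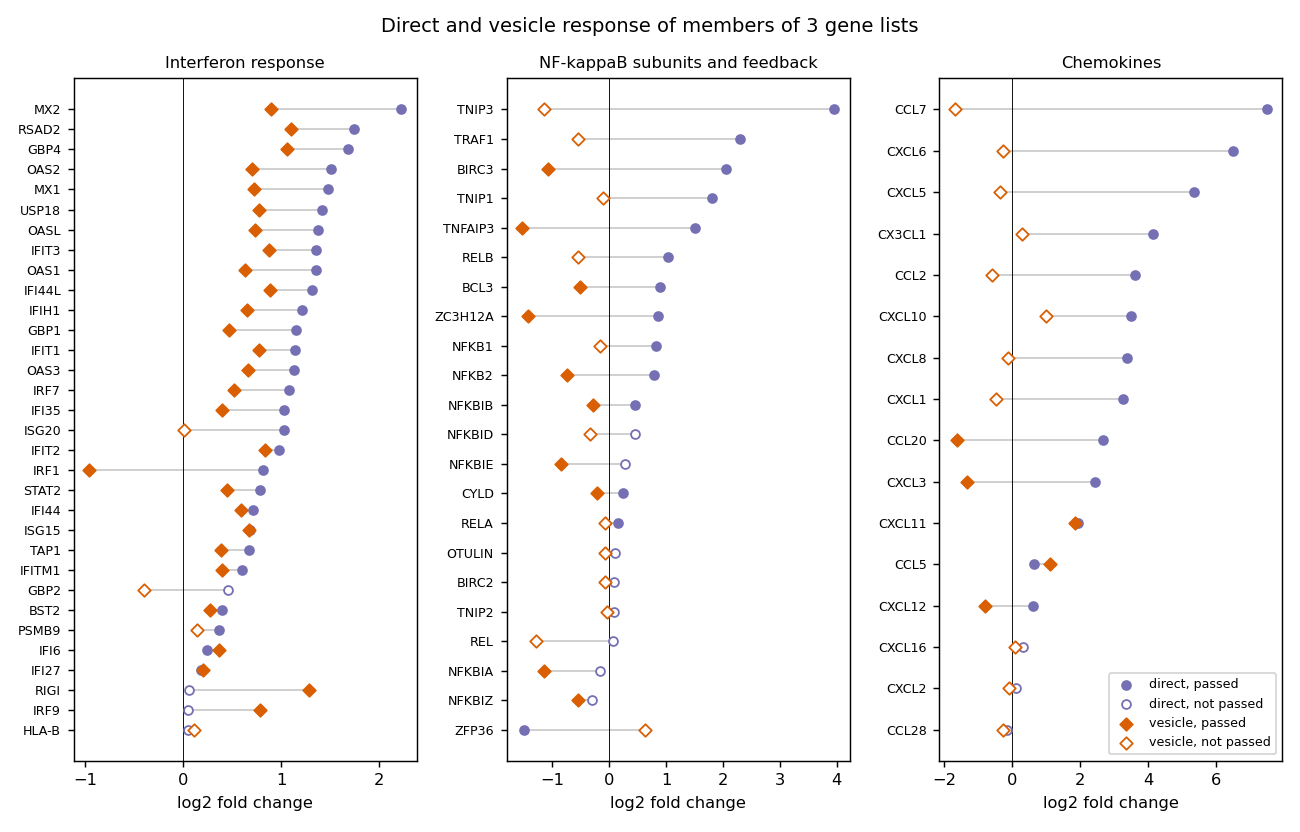
Log2 fold changes of members of 3 lists in the direct (circles) and the vesicle response (diamonds), filled where the gene passed the test and open where it did not. Interferon genes lie to the right of 0 in both arms except IRF1 and GBP2, whereas for most genes of the NF-κB and chemokine lists the vesicle value lies near or below 0.

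Chemokines had the largest median difference of the lists, -3.62 on the log2 scale against 0.019 over all genes. Of 19 on the list 16 were tested, and 13 rose in the direct response (background 25.3%) with none falling. In the vesicle response 2 rose and 3 fell (background 6.13% and 6.92%), and for 11 the vesicle response was the lower (background 20.2%). The median log2 fold change was 2.97 direct and -0.27 vesicle. CXCL6, which draws neutrophils through CXCR1 and CXCR2, was at 4.15, 4.56 and 4.68 CPM in Control and 417, 396 and 386 in IL1b. In EV-Control it was at 5.36, 3.72 and 4.32 CPM and in EV-IL1b at 2.99, 4 and 4.09, so that the vesicle groups overlapped and lay at the level of Control. The log2 fold change was 6.48 (SE 0.0743) direct and -0.26 (SE 0.13, adjusted p = 0.224) vesicle, with a difference of -6.75 (adjusted p = 1.65e-32).

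CXCL8, the neutrophil attractant interleukin 8, had 108, 86.1 and 149 CPM in Control, 1220, 1180 and 1150 in IL1b, 216, 202 and 207 in EV-Control and 162, 180 and 229 in EV-IL1b. Its log2 fold change was 3.37 direct and -0.13 vesicle. CCL2, which draws monocytes, was direct only as well (3.61 and -0.59), although its vesicle groups did not overlap. CCL20, the ligand of CCR6, was opposite, at 1.17, 1.5 and 2.14 CPM in Control, 10.7, 9.45 and 10.4 in IL1b, 12.6, 9.39 and 5.37 in EV-Control and 2.17, 3.46 and 3.23 in EV-IL1b. It rose by 2.67 and fell by 1.62. CXCL3 (2.42 and -1.33) and CXCL12, the ligand of CXCR4 (0.61 and -0.79), were opposite too.

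Promoters of CXCL6, direct only, and of TNFAIP3 and VCAM1, opposite, are shown because all rose with direct IL-1β and hold the κB motif. Each is the 250 bases before the RefSeq start (GRCh38.p14, plus strand), at chr4:73836428-73836677, chr6:137867009-137867258 and chr1:100719492-100719741. Capitals mark the κB motif on either strand, with overlapping matches drawn as 1 stretch, of which CXCL6 and VCAM1 have 1 and TNFAIP3 has 2.
CXCL6: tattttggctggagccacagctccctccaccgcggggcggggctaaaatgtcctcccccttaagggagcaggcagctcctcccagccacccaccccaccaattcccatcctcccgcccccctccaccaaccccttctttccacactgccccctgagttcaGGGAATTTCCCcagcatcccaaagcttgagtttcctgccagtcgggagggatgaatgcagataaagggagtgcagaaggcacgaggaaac
TNFAIP3: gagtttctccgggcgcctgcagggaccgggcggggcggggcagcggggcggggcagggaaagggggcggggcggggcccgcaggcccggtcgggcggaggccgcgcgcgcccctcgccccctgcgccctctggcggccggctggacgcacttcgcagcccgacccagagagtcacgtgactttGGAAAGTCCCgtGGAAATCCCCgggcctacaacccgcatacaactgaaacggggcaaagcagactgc
VCAM1: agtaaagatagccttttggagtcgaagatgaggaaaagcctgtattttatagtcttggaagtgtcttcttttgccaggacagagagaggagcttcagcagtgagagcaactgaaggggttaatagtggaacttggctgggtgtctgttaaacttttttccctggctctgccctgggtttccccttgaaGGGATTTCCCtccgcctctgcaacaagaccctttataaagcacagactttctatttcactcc

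The κB motif occurred in 11.8% of all promoters matched. It occurred in 8 of 12 chemokine promoters (66.7%) and 7 of 20 on the NF-κB list (35.0%), and also in 9 of 25 on the interferon list (36.0%) and 4 of 13 on the endothelial list (30.8%). On the list of the cAMP and immediate early response 0 of 27 promoters held the motif. Among the opposite genes it occurred in 14% of those that rose in the direct response and in 16.7% of those that fell, in 12.4% of the alike, rising set and in 11.3% of the direct only, rising set. The shares in the patterns lay closer to that over all genes than those on the chosen lists.

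Cytokine genes followed both patterns. Of 25 on the list 21 were tested, with 13 higher and 2 lower in the direct response (background 25.3% and 24.4%) and 2 higher and 8 lower in the vesicle response (background 6.13% and 6.92%). CSF2, the growth factor GM-CSF (chr5:132073790-132076170), had the largest negative difference among the genes named. It was at 0.639, 0.483 and 0.338 CPM in Control and 37.9, 37.9 and 34.9 in IL1b, and at 14.7, 5.66 and 3.27 in EV-Control and 0.527, 0.486 and 1.44 in EV-IL1b. Neither arm overlapped, and EV-IL1b was near the level of Control. The log2 fold change was 6.22 (SE 0.637) and -3.25 (SE 0.714), a difference of -9.47 (adjusted p = 6.33e-05). The vesicle call was lost without EV-IL1b replicate 1 (adjusted p = 0.0779) and without replicate 2 of that group (adjusted p = 0.0779).

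IL6, the acute-phase cytokine, had 43.3, 35.0 and 52.2 CPM in Control, 190, 178 and 178 in IL1b, 125, 135 and 142 in EV-Control and 112, 109 and 139 in EV-IL1b. It rose by 2.07 in the direct response and was direct only, with -0.16 in the vesicle response. IL6 overlaps STEAP1B and AC073072.1 on the other strand. CSF3, the growth factor G-CSF, rose by 5.76 and had -1.43 in the vesicle response (adjusted p = 0.149), which passed without EV-Control replicate 1 (-0.66) or replicate 3 (-1.84). VEGFA (0.98 and -0.36), the leukaemia inhibitory factor LIF (0.71 and -0.44) and the EGF receptor ligand EREG (1.02 and -1.68) were opposite. The EGF receptor ligands AREG (-1.03 and -1.04) and HBEGF (-1.12 and -1.19) fell alike. PDGFB, which recruits pericytes, was vesicle only (0.15 and 0.57). Its means were 46.4 CPM in Control, 25.3 in EV-Control and 37.7 in EV-IL1b, so that EV-IL1b stayed below Control.

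The genes of the IL-1 system itself were split between arms. Of 16 ligands and receptors 9 were tested, with 7 higher and 1 lower in the direct response (background 25.3% and 24.4%) and none higher and 3 lower in the vesicle response (background 6.13% and 6.92%). IL1B was at 20.9, 14.6 and 22.9 CPM in Control, 142, 134 and 137 in IL1b, 67.4, 72.0 and 79.9 in EV-Control and 44.1, 44.4 and 50.3 in EV-IL1b. It rose by 2.82 (SE 0.132) and fell by 0.66 (SE 0.123), without overlap in either arm. IL1A, the second agonist of the receptor, had 4.15, 2.68 and 4.57 CPM in Control, 13.7, 12.9 and 12.9 in IL1b, 13.6, 12.6 and 6.59 in EV-Control and 3.57, 3.62 and 2.42 in EV-IL1b. It rose by 1.79 and fell by 1.76, which was called in each fit with a library left out.

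The receptor IL1R1 rose by 0.80 and fell by 0.40, with 18.1, 20.4 and 22.2 CPM in Control, 34.9, 36.1 and 34.7 in IL1b, 29.6, 23.3 and 23.1 in EV-Control and 19.4, 19.0 and 19.3 in EV-IL1b. Without EV-Control replicate 1 its vesicle value was -0.27 (adjusted p = 0.0512). IL1RAP, the co-receptor, rose by 0.58 and had -0.20 in the vesicle response (adjusted p = 0.0521), which passed in 4 of the 12 fits with a library left out. IL1RL1, the receptor of interleukin 33, rose in the direct response only (3.80 and 0.19), and SIGIRR, an inhibitory receptor, fell in it only (-0.89 and -0.13). IL1RL1 overlaps IL18R1 on the same strand. Among 22 signalling genes, MYD88 rose alike (0.75 and 0.44), and the inhibitory kinase IRAK3 rose in the direct response only (1.11 and -0.04). IRAK3 overlaps RBMS1P1 on the other strand.

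Of 15 leukocyte adhesion genes 11 were tested, with 4 higher and 4 lower in the direct response (background 25.3% and 24.4%) and 1 higher and 3 lower in the vesicle response (background 6.13% and 6.92%). Their median log2 fold change was -0.06 direct and -0.21 vesicle. The pattern was opposite for 4 (background 3.85%) and direct only for 3 (background 27.9%). F11R (-0.35) and ICAM2 (-0.61), which sit at endothelial contacts, fell in the direct response only, and the hyaluronan receptor CD44 was opposite (1.54 and -0.21). VCAM1, the ligand of integrin α4β1, was at 7.40, 6.33 and 9.03 CPM in Control, 128, 129 and 117 in IL1b, 43.7, 20.9 and 14 in EV-Control and 7.78, 9.72 and 9.11 in EV-IL1b. It rose by 4.04 and fell by 1.55 with adjusted p = 0.0424, a difference of -5.59 (adjusted p = 5.36e-05). The opposite call of VCAM1 was kept in 2 of 12 fits with a library left out and became direct only in 10, with a vesicle adjusted p up to 0.136, while the difference stayed called. ICAM1, the ligand of LFA-1, rose by 1.17 and fell by 0.80 (147, 141 and 137 CPM in Control, 319, 316 and 322 in IL1b, 253, 184 and 150 in EV-Control, 109, 111 and 118 in EV-IL1b). Its vesicle call was lost without EV-IL1b replicate 1 (adjusted p = 0.0583) or 2 (adjusted p = 0.0525). SELE, E-selectin, was low and uneven, at 5.24, 1.55 and 0.0554 CPM in EV-Control and 0.41, 0.324 and 0.519 in EV-IL1b, and its vesicle value of -2.41 did not pass (adjusted p = 0.2) except without EV-Control replicate 3 (-3.01). The SELE pattern became difference alone in 1 further fit. It lies opposite C1orf112 on the other strand.

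Acute-phase and prostaglandin genes rose widely in the direct response. Of 18 tested, 15 rose in it (background 25.3%), and 2 rose and 4 fell in the vesicle response (background 6.13% and 6.92%). The pattern was direct only for 8 (background 27.9%), alike for 3 (background 4.94%) and opposite for 3 (background 3.85%). PTGS2, which makes prostaglandins, was at 1.01, 0.912 and 1.13 CPM in Control, 31.7, 29.7 and 32.5 in IL1b, 0.783, 1.78 and 2.21 in EV-Control and 2.17, 1.30 and 0.98 in EV-IL1b. It rose by 4.94, with -0.13 in the vesicle response. PTX3, a soluble pattern receptor, had 2.79 and -0.25. TNFAIP6, which modifies hyaluronan, reached 52.3, 43.8 and 44.2 CPM in IL1b and stayed at or under 0.361 CPM in the other groups, where fold changes rest on a few counts. Its difference was lost without EV-Control replicate 1 (adjusted p = 0.083). SOD2, the mitochondrial superoxide dismutase, rose by 2.95 and fell by 0.86 (adjusted p = 0.0266), but the vesicle call was lost without any 1 of the EV-IL1b libraries.

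HSD11B1, which regenerates cortisol, was opposite and stable. It was at 1.86, 1.56 and 1.69 CPM in Control, 43.8, 40.0 and 41.6 in IL1b, 2.35, 1.89 and 2.60 in EV-Control and 1.11, 1.08 and 0.98 in EV-IL1b. The log2 fold change was 4.61 (SE 0.137) and -1.10 (SE 0.229), and it was called opposite in each fit with a library left out. Complement C3 rose by 2.85 in the direct and 0.17 in the vesicle response, and was called alike with a difference of -2.68.

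**Figure D4:**
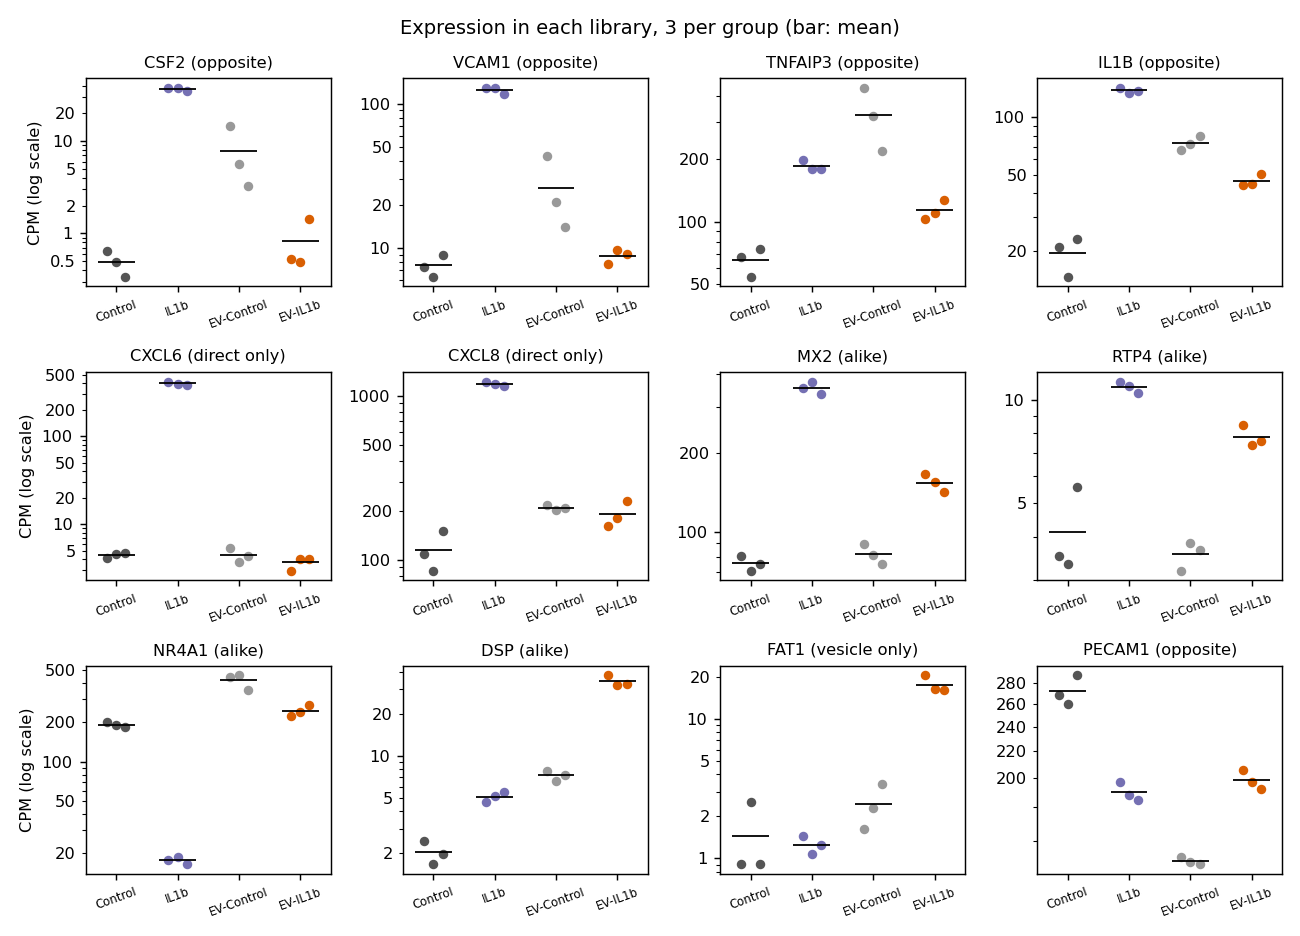
CPM on a log axis for 12 genes, with a point for each library and a bar at the mean of each group. In CSF2, VCAM1 and TNFAIP3 the EV-Control points spread widely and lie above EV-IL1b, and FAT1 is high in the 3 EV-IL1b libraries (16.0 to 20.4 CPM) alone.

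Endothelial genes fell more often than they rose in the direct response and rose more often than they fell in the vesicle response. Of 22 identity genes 21 were tested, with 1 higher and 12 lower in the direct response (background 24.4% lower) and 7 higher and 3 lower in the vesicle response (background 6.13% higher). The vesicle response was the higher in 13 genes (background 18.3%) and the lower in 2. The median log2 fold change was -0.35 direct and 0.20 vesicle. PECAM1, which joins endothelial cells, was at 269, 260 and 288 CPM in Control, 197, 188 and 185 in IL1b, 151, 148 and 147 in EV-Control and 206, 197 and 192 in EV-IL1b. It fell by 0.52 (SE 0.04) and rose by 0.42 (SE 0.0409), without overlap in either arm. EV-Control was the lowest group, by 0.87 on the log2 scale below Control. Pericyte and smooth muscle markers were summed beside this list. They came to 945 to 1030 CPM in Control, 742 to 785 in IL1b, 853 to 875 in EV-Control and 906 to 956 in EV-IL1b. ANPEP and CSPG4 held most of these sums, with group means of 388 to 558 and 289 to 377 CPM. RGS5 stayed at 7.89 to 9.18 CPM and ACTA2 at 2.61 to 3.05. Of 9 such markers tested, 5 were higher and none lower in the difference (background 18.3% and 20.2%). DES, KCNJ8 and ABCC9 stayed under 1 CPM in each library. The part of the pericyte and smooth muscle markers in the result was not tested.

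The junction protein ESAM (-0.90 and 0.63) and the guidance receptor ROBO4 (-0.67 and 0.28) were opposite as well. ESAM overlaps AP000866.2 on the other strand. VWF, which binds platelets, was vesicle only (-0.16 and 0.45). Its means were 64.2 CPM in Control, 43.9 in EV-Control and 60.1 in EV-IL1b, so that EV-IL1b stayed below Control. The transcription factor SOX17 fell with vesicles only (-0.14 and -0.59). CLDN5, the main claudin of the barrier, was direct only. It was at 51.4, 47.5 and 44.6 CPM in Control, 16.7, 15 and 18.1 in IL1b, 15.5, 14.2 and 15.9 in EV-Control and 19.6, 17.0 and 16.9 in EV-IL1b. It fell by 1.53 with direct IL-1β and had 0.23 in the vesicle response (adjusted p = 0.113). KLF2, a transcription factor induced by flow, fell by 1.84 and had 0.49 in the vesicle response.

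NOTCH3, a receptor best known from mural cells, was opposite, at 8.95, 9.49 and 5.47 CPM in Control, 1.87, 2.62 and 2.32 in IL1b, 8.13, 8.44 and 9.69 in EV-Control and 18.3, 16.1 and 14.1 in EV-IL1b. It fell by 1.82 and rose by 0.88, a difference of 2.70 (SE 0.24, adjusted p = 4.4e-12). VIPR1, a receptor of vasoactive intestinal peptide, fell by 2.37 and rose by 0.89, and EV-Control stood below Control by 2.15 on the log2 scale. VIPR1 overlaps VIPR1-AS1 on the other strand. The GTPase MRAS had -1.67 and 1.14. ST3GAL5, which makes the ganglioside GM3, fell in the direct response only, with 25.7, 22.8 and 21.3 CPM in Control, 1.97, 2.99 and 2.75 in IL1b, 18.4, 17.3 and 16.6 in EV-Control and 15.9, 18.2 and 19.5 in EV-IL1b. Its log2 fold change was -3.18 (SE 0.136) and 0.04 (SE 0.106).

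Genes of the cAMP and immediate early response fell in both arms, each against its own control, more often than they rose. Of 35 tested, 4 rose and 19 fell in the direct response (background 24.4% falling), and 2 rose and 14 fell in the vesicle response (background 6.92% falling). The pattern was alike for 10 (background 4.94%). The orphan nuclear receptor NR4A1 was at 201, 191 and 183 CPM in Control, 17.8, 18.8 and 16.5 in IL1b, 445, 456 and 355 in EV-Control and 225, 241 and 273 in EV-IL1b. It fell by 3.44 (SE 0.133) and by 0.77 (SE 0.105), a difference of 2.67 (adjusted p = 2.46e-06). NR4A2 fell by 3.32 and 1.20, and PDK4, a kinase that slows glucose oxidation, by 2.83 and 1.02. The NR4A2 means were 112 CPM in Control, 336 in EV-Control and 147 in EV-IL1b. Those of PDK4 were 76.3, 157 and 77.2. The vesicle falls of NR4A1, NR4A2 and PDK4 thus started from a raised EV-Control, and EV-IL1b did not lie below Control.

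NR4A3, of the same family, was at 12.7, 12.5 and 12.5 CPM in Control, 1.40, 2.19 and 1.24 in IL1b, 138, 81.4 and 28.4 in EV-Control and 4.04, 4.37 and 5.36 in EV-IL1b. It fell by 2.96 in the direct response and fell by 4.16 in the vesicle response. The difference of -1.20 (SE 1.25, adjusted p = 0.508) did not pass the test. The direct call of NR4A3 was lost without IL1b replicate 1 or 3, although the Control and IL1b libraries did not overlap. The fit shared the spread of a gene over all groups, so the uneven EV-Control libraries entered this direct p-value too. ID2, an inhibitor of differentiation factors, fell alike (-1.45 and -1.24), as did the phosphodiesterase PDE4B (-0.84 and -1.04). The ID2 means were 10.0 CPM in Control, 3.66 in IL1b, 49.2 in EV-Control and 20.9 in EV-IL1b, so that EV-IL1b stayed above Control. Those of PDE4B were 99.2, 55.4, 138 and 67.2, with EV-IL1b below Control. DUSP4, a MAP kinase phosphatase, was opposite (-0.71 and 0.74). DUSP2, of the same family, fell with vesicles only (-0.03 and -2.79). Its means were 0.235 CPM in Control, 0.231 in IL1b, 3.14 in EV-Control and 0.445 in EV-IL1b, so that only EV-Control stood out. NR4A1 overlaps AC025259.3 on the other strand, and SIK1, which fell by 2.62 and 0.75, has a near-identical copy.

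A few genes rose most in EV-IL1b. FAT1, a giant protocadherin (chr4:186587783-186726722), was at 0.905, 2.52 and 0.903 CPM in Control, 1.45, 1.07 and 1.24 in IL1b, 1.63, 2.28 and 3.43 in EV-Control and 20.4, 16.3 and 16.0 in EV-IL1b. The Control and IL1b libraries overlapped, and the EV-IL1b libraries lay above all others. Its log2 fold change was -0.21 (SE 0.395, adjusted p = 0.697) and 2.83 (SE 0.256), a difference of 3.04 (SE 0.479, adjusted p = 6.78e-05), or 2.35 without Control replicate 2. DSP, the desmosomal linker desmoplakin, rose in both, from 2.45, 1.66 and 1.97 CPM in Control to 4.67, 5.12 and 5.44 in IL1b, and from 7.77, 6.61 and 7.25 in EV-Control to 37.5, 32.1 and 32.4 in EV-IL1b. Its log2 fold change was 1.32 (SE 0.174) and 2.24 (SE 0.115), with the larger change in the vesicle arm.

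UCHL1, a ubiquitin hydrolase, rose with vesicles only (-0.12 and 0.97), as did NIBAN1 (0.21 and 0.96). PHGDH, the first enzyme of serine synthesis, was opposite (-0.55 and 1.01). EIF4A1 (-0.09 and 0.97) lies within the readthrough gene SENP3-EIF4A1 on the same strand, so its counts are uncertain. Of genes that fell with vesicles only, SPHK1, which makes sphingosine 1-phosphate, had 0.26 and -0.86, and ANGPTL4, an inhibitor of lipoprotein lipase, 0.20 and -0.93. SPHK1 was called opposite in 2 and ANGPTL4 in 1 of the 12 fits with a library left out. Both overlap a gene on the other strand.

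On the ATF4 and ER stress list, 6 of 30 genes were alike (background 4.94%). Among them were the chaperones HSPA5 (1.00 and 0.55), CALR (0.18 and 0.31), HSP90B1 (0.32 and 0.26) and PDIA4 (0.30 and 0.15), named after their values were seen. The co-chaperone DNAJB9 fell with vesicles only (0.17 and -0.51), and DNAJC3 (0.16 and -0.01) and SDF2L1 (0.37 and 0.19) were unresolved. The list as a whole had 10 genes higher and 9 lower in the difference among 30 (background 18.3% and 20.2%), or 12 and 7 with scaling by total counts. Matrix genes fell alike for the protease inhibitor TIMP2 (-0.88 and -0.16), the gelatinase MMP2 (-1.49 and -0.25) and the basement membrane linker NID2 (-0.54 and -0.36). Of 33 matrix genes tested 11 were alike (background 4.94%). The MMP2 vesicle call was lost in 2 of 12 fits with a library left out.

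Of 30 tested genes of vesicle biogenesis, 4 rose and 6 fell in the direct response (background 25.3% and 24.4%), and none rose and 6 fell in the vesicle response (background 6.13% and 6.92%). Their difference was higher in 5 and lower in 7 (background 18.3% and 20.2%), or 8 and 3 with scaling by total counts. The tetraspanins CD9 (-0.24 and -0.10) and CD63 (-0.29 and -0.03) were alike and direct only. Among 28 tested genes of vesicle binding and uptake, 8 rose and 14 fell in the direct response (background 25.3% and 24.4%). In the vesicle response 4 of them rose and 6 fell (background 6.13% and 6.92%). The scavenger receptor LRP1 fell in the direct response only (-1.20 and 0.05), and overlaps a tested gene on the other strand. The heparan sulphate proteoglycan SDC4 was opposite (0.71 and -0.45), although its vesicle call was lost without any 1 of the EV-IL1b libraries. SDC4 overlaps AL021578.1 on the same strand. Of 24 tested barrier transporters, 11 rose and 7 fell in the direct response (background 25.3% and 24.4%), and 2 rose and 8 fell in the vesicle response (background 6.13% and 6.92%). The transferrin receptor TFRC was opposite (1.27 and -0.36), as was the glucose transporter SLC2A1 (-0.17 and 0.21). The efflux pump ABCB1 fell alike by 0.21 and 0.19. Of 30 cholesterol genes 7 were vesicle only (background 2.45%). Among them the synthesis genes HMGCS1 (-0.30) and INSIG1 (-0.23) fell and the exporter ABCG1 (1.25) rose against EV-Control. The difference of the list had 8 higher and 10 lower (background 18.3% and 20.2%), or 14 and 7 with scaling by total counts. Of 32 genes of proliferation and DNA replication, 5 rose and 20 fell in the direct response (background 25.3% and 24.4%), and 5 rose and 10 fell in the vesicle response (background 6.13% and 6.92%). The median log2 fold change of this list was -0.12 direct and -0.07 vesicle. The mitotic kinase AURKA was opposite (-0.23 and 0.24), and the cell cycle inhibitor CDKN1A fell alike (-0.95 and -0.34).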

How the data were processed

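The authors deposited whole-number read counts by Ensembl gene for 30 libraries, not normalized. STAR, FastQC, DESeq2 and R 4.4.1 with the build hg38 are named in the submitters' processing notes. The counting program, the annotation and the use of strand are not given in the sources used here. The labels' protocols name QIAshredder and RNeasy columns and the NEBNext Ultra RNA kit. Of 63147 lines, 4 had no gene ID (at most 0.00164% of a library's counts) and 3 were duplicates. The 2 genes broken over lines, TTN and ANK2, were left out.

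The 12 libraries were fitted together with edgeR 4.0.16 in R 4.3.3 (4 group means, filterByExpr, TMM scaling, robust quasi-likelihood test, two-sided, Benjamini-Hochberg adjustment over all genes tested, threshold 0.05). The spread of each gene was shared over the groups, so that the uneven EV-Control libraries entered direct p-values and the direct libraries entered vesicle p-values. CPM are counts scaled to a common library total after TMM. Simulated counts held 15362 genes, 200 with an interaction. Of these, 44 of 67 changed 1.5-fold, 60 of 67 changed 2-fold and 66 of 66 changed 4-fold were found, with 14 false calls. All 170 genes found were called vesicle only. Recovery of genes that also changed in the direct arm, or with EV-Control libraries as uneven as here, was not tested.

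Genes were named by a rule, among those whose highest group mean reached 5 CPM. It took up to 4 alike genes in each direction and up to 5 opposite genes for each order of signs, by the smaller absolute change of the arms. It took up to 4 direct only and vesicle only genes in each direction whose other arm had its interval inside ±0.5, the 5 largest called differences in each direction, and up to 4 genes of each list by called difference. Always named were IL1A, IL1B, IL1R1 and IL1RAP, the adhesion genes SELE, VCAM1 and ICAM1, the secreted factors IL6, CXCL8 and CCL2, then CLDN5, NFKBIA and NR4A1, NR4A2 and NR4A3. Other list members named in the text were chosen after their values were seen. Some list members are not reported here. Members and lists were chosen with earlier results of these data known. Gene positions and overlaps come from GENCODE 29, and promoters from RefSeq. Where no count was seen, up to 3 could have been missed per library, by counting error alone. Other settings tried were relative log expression and total-count scaling, no filter, a mean of at least 50 counts, DESeq2 1.42.0, all 30 libraries, a replicate block, a threshold of 0.01, and leaving out each library.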

Additional observations from a re-analysis of the deposited data

Results flagged for a closer look

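The effect of IL-1β differed between the direct and the vesicle arm, by the test of the difference itself, for 6037 genes. The genes counted here were always named, or named for a pattern, for the size of their difference or from the lists of vesicle genes. Of these 50 passed this test, 27 lower and 23 higher in the vesicle arm. Many were picked by a called difference, so their passing followed from the choice. Genes named only from other lists are left out. The values below are log2 differences, vesicle minus direct.

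Among secreted factors the difference was -9.47 for CSF2, -8.18 for TNFAIP6, -7.20 for CSF3, -6.75 for CXCL6, -4.28 for CCL20, -4.20 for CCL2, -3.50 for CXCL8 and -2.22 for IL6. In the IL-1 system it was -3.55 for IL1A, -3.48 for IL1B, -1.20 for IL1R1 and -0.78 for IL1RAP. Adhesion molecules had -6.60 (SELE), -5.59 (VCAM1) and -1.96 (ICAM1). The NF-κB inhibitors TNFAIP3 and NFKBIA had -3.04 and -0.99. Further genes lower in the vesicle arm were HSD11B1 (-5.71), the protease inhibitor SERPINE2 (-3.05), the claudin CLDN1 (-2.02), PSTPIP2 (-1.84), SDC4 (-1.16), ANGPTL4 (-1.13), ZNF267 (-1.12), SPHK1 (-1.12), the endosomal sorting protein HGS (-0.34) and the syntenin SDCBP (-0.27).

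Receptors and surface proteins higher in the vesicle arm were VIPR1 (3.26), FAT1 (3.04), NOTCH3 (2.70), LRP3 (2.19), CD248 (2.03), CLDN5 (1.75), SDC2 (1.46), LRP1 (1.25) and MERTK (0.99). The nuclear receptors NR4A1 and NR4A2 had 2.67 and 2.13. Enzymes and signalling proteins had 3.22 (ST3GAL5), 2.81 (MRAS), 2.30 (ALPL), 1.23 (RIGI), 1.10 (UCHL1) and 1.06 (EIF4A1). The rest were the host transcript MIR23AHG (2.91), LZTS1 (2.15), TMEM35A (2.05), DSP (0.92), NIBAN1 (0.75) and FLOT1 (0.38). MIR23AHG and HGS overlap a tested gene on the other strand.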

How the results depend on the processing

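The difference was called in 4458 to 6165 genes over 20 other settings. Of 107 named genes, 98 kept its direction and side of the threshold in every setting that tested them. With the filter at a mean of 50 counts, 103 were tested. At an adjusted p under 0.01 the vesicle response held 1101 genes (487 higher, 614 lower), with 432 alike, 295 opposite and 224 vesicle only. Leaving out each library gave 577 to 915 genes higher in the vesicle response and 401 to 666 opposite, both lowest without EV-IL1b replicate 1, with fewer samples fitted. Uncalled differences changed sign for ZNF594 with total-count scaling (0.04) and without Control replicate 3 (0), EV-Control replicate 2 (0.07) or EV-IL1b replicate 2 (0), and for RHOV without EV-Control replicate 1 (0.09). Over the fits that left out a library they ranged from -0.2 to 0.07 for ZNF594 and from -0.88 to 0.09 for RHOV. The cause was not tested.

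The pattern was kept in all 12 fits that left out a library by 16 of 35 named opposite genes, 11 of 16 alike, 31 of 45 direct only and 6 of 10 vesicle only. The interferon list had 26 alike genes in each fit that left out a library. Replicate numbers did not pair the samples (correlation of same-numbered deviations -0.015 to 0.035). With the replicate block the difference was called in 5684 genes, and VCAM1, BIRC3, ICAM1, IRF1, SOD2, CEBPB, ETS1 and EGFL7 were direct only. Depth limits genes of a few counts, such as TNFAIP6 outside IL1b.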
